A study of Mus musculus with 24 samples.

Results

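The epithelium of the Müllerian duct was compared with the mesenchyme beside it in female mouse embryos that lack Wnt7a, at E13.5, an embryonic stage before the paired ducts fuse at the body midline. The comparison used 6 of the series' 24 libraries. They came from 3 Wnt7a-null E13.5 embryos, of 12 embryos in all, and each embryo gave 1 library from the Müllerian duct epithelium (MDE) and 1 from the Müllerian duct mesenchyme (MDM). The libraries were chosen by genotype, stage and region in their titles, and libraries with the same number in the title were paired as 1 embryo. Wild-type E13.5 embryos, Wnt7a-null E14.5 embryos and wild-type E14.5 embryos, 3 of each and all female, were used for comparison. The null embryos carried no other allele or treatment named in the labels, which do not name a strain.

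Müllerian ducts are epithelial tubes, each wrapped in mesenchyme, from which the oviducts, uterus and upper vagina form. Wnt7a is a secreted Wnt ligand made by the duct epithelium, and Hoxa13, named beside it in the study's title, encodes a homeodomain transcription factor of the caudal reproductive tract. Laminin is a protein of the basement membrane that separates such an epithelium from its mesenchyme. The study used laminin immunofluorescence to choose the regions in paraffin sections, so a region is a captured area that can hold several cells and more than 1 cell type, and not a sorted population. The labels name no Cre driver or tissue-specific promoter and give the null genotype for both regions of an embryo.

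RNA was measured with GeoMx digital spatial profiling, in which DNA probes are hybridised to the section, their barcodes are released from a chosen area by ultraviolet light, and the barcodes are sequenced. The deposited values were counts for 20175 probes, each known by an RTS identifier. None of the identifiers was paired with a gene name in the sources used here (0 matched), so probes are given by identifier. For the same reason, neither the loss of Wnt7a nor the epithelial and mesenchymal labels of the regions could be checked against their genes, and no sequence is shown. The direction called higher or lower below always means MDE relative to MDM.

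The MDE libraries were much shallower than the MDM libraries of the same embryos. The MDE totals were 139017, 182105 and 365215 counts in embryos 1, 2 and 3, against 2481026, 3275877 and 2942200 in the MDM. The MDM total was therefore 17.8, 18.0 and 8.06 times the MDE total. Sequencing was also less deep for the MDE: each count rested on 2.18 to 2.35 aligned reads there and on 24.6 to 25.6 in the MDM. A median probe had 5, 6 and 15 counts in the MDE libraries and 93, 118 and 122 in the MDM libraries, and 261, 111 and 0 probes were at 0 in the MDE. Fewer cells in a region, less RNA per cell and shallower sequencing cannot be told apart from these totals.

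Many probes lay close to background in both regions. Background was taken as the mean level of the dimmest 25% of probes, since control probes could not be told from the identifiers. It was 24.9, 24.3 and 28.9 CPM (counts relative to the library total, scaled by TMM, a trimmed-mean correction of library size) in the MDE and 26.9, 26.5 and 29.0 CPM in the MDM. A mean level under 1.5 times background was found for 10477 of the 20175 probes in the MDE and for 12003 in the MDM. The brightest 5% of probes, 1009 in all, took 24.4%, 26.2% and 17.9% of the MDE counts and 22.1%, 24.0% and 17.9% of the MDM counts. Embryo 3 had the flattest signal in both regions, and it was the only embryo of the 3 whose MDE share did not exceed its MDM share. The mean MDE minus MDM difference in this share was 1.49 ± 1.34 percentage points (SD, n = 3).

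**Figure D1:**
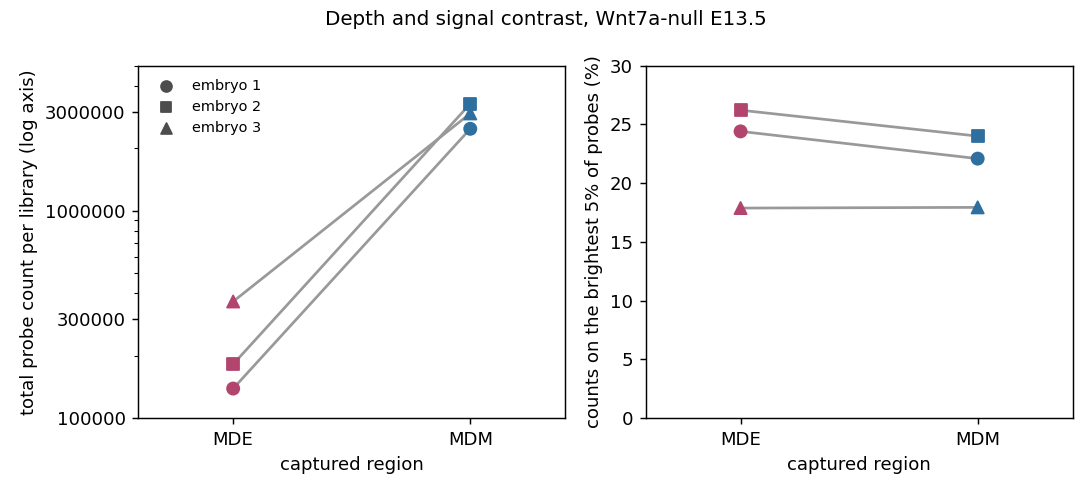
Total probe count per library on a log axis (left) and the percentage of counts on the brightest 5% of probes (right) for the 3 Wnt7a-null E13.5 embryos, with a line between the regions of each embryo. The MDE totals lie between 139017 and 365215 and the MDM totals between 2481026 and 3275877, and embryo 3 has the lowest share of bright probes in both regions.

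The question addressed first was which probes separate the epithelium from the mesenchyme in the absence of Wnt7a. At an adjusted p under 0.05, 237 of 20175 probes differed between the regions (1.17%), of which 168 were higher (0.833%) and 69 were lower (0.342%) in the MDE. The median log2 fold change was 0.86 for the higher probes, with a range of 0.39 to 2.29, and -1.06 for the lower probes, with a range of -1.87 to -0.28. More than a 2-fold difference was reached by 54 higher and 41 lower probes, and more than a 4-fold difference by 1, RTS0073516. The test was edgeR's quasi-likelihood test with the embryo as a block and Benjamini-Hochberg adjustment; 1755 probes had an unadjusted p under 0.05.

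The number of probes passing the threshold depended on the embryos, on depth and on the scaling. Without embryo 1, 2 or 3 it was 117, 142 and 110, and 52 probes (39 higher, 13 lower) passed in all 3 of these fits. When each MDM library was thinned at random to the MDE total of its embryo, 99 of 17996 tested probes passed, 70 higher and 29 lower, of which 86 were among the 237. Upper-quartile scaling also gave 237 probes, but with 72 higher and 165 lower; the median probe then had a log2 fold change of -0.15. A limma fit on background-subtracted levels, which tested only 8292 brighter probes, called 81 higher and 211 lower. Of the probes called in that limma fit, 128 were among the 237 of the main fit. Of the 237 probes called with upper-quartile scaling, 139 were called with TMM as well, all in the same direction. With DESeq2 size factors in edgeR, 178 were higher and 67 lower, and DESeq2 itself called 137 higher and 34 lower. The split into higher and lower probes therefore depends on the scaling. Higher probes were the majority with TMM and with DESeq2 size factors, but not with upper-quartile scaling or background subtraction.

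**Figure D2:**
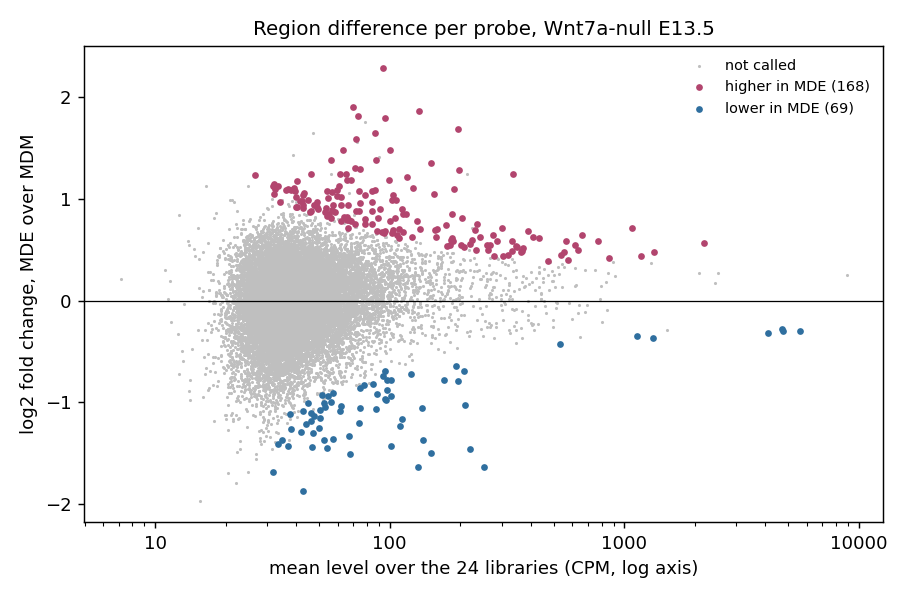
Log2 fold change of MDE over MDM in Wnt7a-null E13.5 embryos against the mean level over the 24 libraries (CPM, log axis), 1 point per probe. The 168 probes higher in the MDE and the 69 lower ones are coloured, and most of them lie among the brighter probes.

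Of the probes higher in the MDE, RTS0068983 had the lowest p. Its level was 545, 340 and 291 CPM in the MDE of embryos 1, 2 and 3, and 137, 118 and 97.7 CPM in the MDM. These levels rest on 73, 58 and 112 counts in the MDE and on 342, 373 and 305 counts in the MDM. Every MDE level lay above every MDM level, and the probe was 2.92 to 4.01 times higher in the MDE within each embryo. The fitted difference was 3.23-fold (log2 fold change 1.69, SE 0.138, edgeR adjusted p = 4.02e-25).

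RTS0073516 had the largest difference of the 20175 probes. It stood at 149, 241 and 143 CPM in the MDE (20, 41 and 55 counts) and at 31.6, 32.8 and 38.1 CPM in the MDM (79, 104 and 119 counts). The MDM levels were only 1.18 to 1.32 times background, so the probe was close to background in the mesenchyme. Its fitted log2 fold change was 2.29 (4.90-fold, SE 0.193, edgeR adjusted p = 1.02e-23). Subtraction of the background before a limma fit raised it to 4.06. Subtracted levels in that fit were held at no less than 0.25 times background. The MDM levels lay near that floor after subtraction, so the value of 4.06 depends partly on it.

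Of the probes lower in the MDE, RTS0064427 had the lowest p. Its level was 157, 141 and 80.5 CPM in the MDE (21, 24 and 31 counts) and 447, 351 and 310 CPM in the MDM (1117, 1113 and 969 counts). The groups did not overlap, and the log2 difference within an embryo was -1.48, -1.29 and -1.92. The fitted log2 fold change was -1.63 (SE 0.164, edgeR adjusted p = 2.04e-17). In contrast to RTS0073516, this probe was also above background in the region where it was lower, at 4.96 times background on average in the MDE.

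RTS0068462 was the second of the lower probes. It stood at 44.8, 64.6 and 83.1 CPM in the MDE (6, 11 and 32 counts) and at 237, 116 and 264 CPM in the MDM (593, 368 and 825 counts). The embryos differed in size: the MDM level was 4.89, 1.72 and 3.13 times the MDE level in embryos 1, 2 and 3, although no MDE level reached an MDM level. The fitted log2 fold change was -1.64 (SE 0.206, edgeR adjusted p = 4.63e-11). Each of these 4 probes passed the threshold in the same direction in all 25 alternative fits that were run. Some of these fits are close to the main fit, and the fit without a low-count filter is the same as it.

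**Figure D3:**
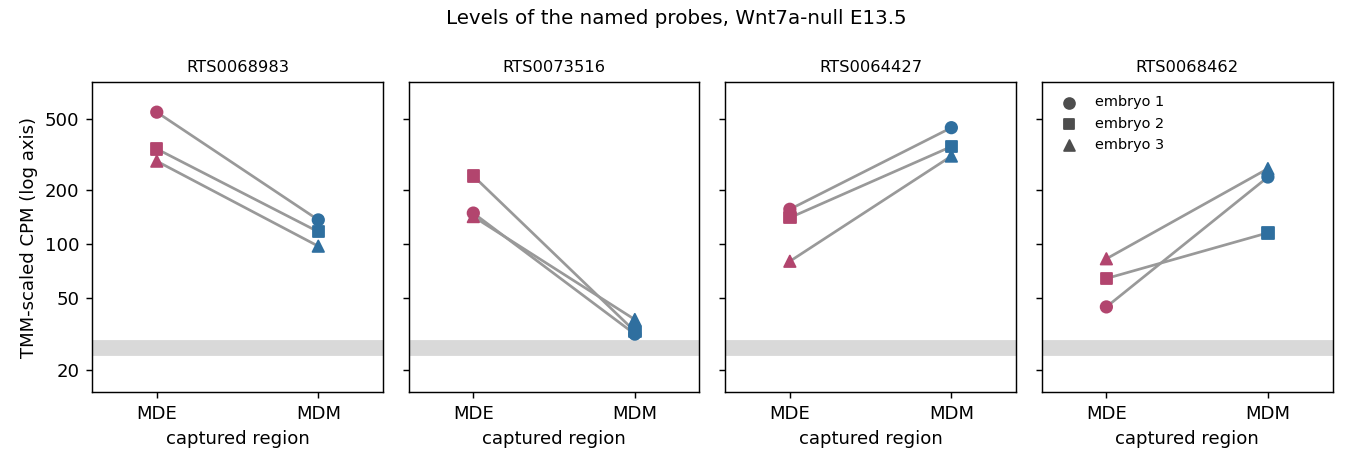
TMM-scaled CPM (log axis) of the 4 named probes in the MDE and MDM of the 3 Wnt7a-null E13.5 embryos, with lines joining the regions of an embryo and a grey band over the background level of the 6 libraries. RTS0068983 and RTS0073516 are higher in every MDE library and RTS0064427 and RTS0068462 in every MDM library, and RTS0073516 lies just above the band in the MDM.

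The probes that passed were mostly bright ones. When the panel was split into 5 equal classes of 4035 probes by mean level, from dimmest to brightest, 1, 9, 14, 30 and 183 probes passed. The brightest class, from 53.2 CPM upward, held 137 of the 168 higher and 46 of the 69 lower probes. Precision rose along the same order: the median SE of the log2 fold change was 0.366 in the dimmest class and 0.228 in the brightest. The median log2 fold change also moved along it, from -0.07 to 0.09, so the position of a probe on the brightness scale carries a small shift of its own. At this depth, small differences in dim probes were not detectable.

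In many of the probes that passed, the region with the lower level was close to background. Of the 168 higher probes, 46 had an MDM level under 1.5 times background, and of the 69 lower probes, 26 had an MDE level under it. In 3 of those 26, the MDM level was under it as well. For these 72 probes, RTS0073516 among them, the lower of the levels compared consists largely of background. The 168 higher probes together took 4.55%, 4.78% and 3.22% of the MDE counts and 2.67%, 3.14% and 2.10% of the MDM counts. The 69 lower probes took 2.15%, 2.63% and 1.76% of the MDE counts and 3.30%, 3.27% and 2.70% of the MDM counts. Probes chosen for their difference thus accounted for a small part of the counts of either region.

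Calls were frequent among the very brightest probes, and the differences called were under 2-fold. The set was 16 probes with a mean over 1000 CPM, a limit chosen after the values were seen. Of these, 4 were higher in the MDE, by 0.43 to 0.72 on the log2 scale. Another 6 were lower, with log2 fold changes of -0.37 to -0.28. Of all probes, 0.833% were called higher and 0.342% lower. The 6 lower probes had the same sign in each of the 3 embryos, yet their MDE and MDM levels overlapped in all 6. They were also called lower in wild-type E13.5 MDE (6 of 6, against 0.287% of all probes). In Wnt7a-null E14.5 embryos, 0 of the 6 were called lower in the MDE, against 0.555% of all probes. None of the 6 lower probes passed in the limma-voom fit or in the first thinning draw, and all 6 passed under upper-quartile scaling and after background subtraction. Of the 4 higher probes, 0 passed in the limma-voom fit, 4 in that thinning draw, and 1 each under upper-quartile scaling and after background subtraction. DESeq2 called 3 of the 6 lower and 2 of the 4 higher probes. The calls for these small differences thus depend on the method.

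The 3 embryos gave the same direction for most of the probes that passed. The sign of the within-embryo difference was shared by all 3 for 226 of the 237 probes, and for 29.5% of all probes. The MDE and MDM levels did not overlap for 146 of the 237, 93 higher and 53 lower, and for 14.6% of all probes. These probes were chosen from the same embryos, so the counts describe them and do not test them. The median log2 difference of the higher probes was 0.94, 0.82 and 0.72 in embryos 1, 2 and 3, and that of the lower probes was -1.08, -0.98 and -0.94. Over all probes, the SD of the differences was 0.74, 0.66 and 0.43, in the order of the MDE totals from shallowest to deepest.

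Across the panel, the within-embryo differences correlated weakly between embryos. A median probe had 5, 6 and 15 counts in the MDE, so a low r does not show that the embryos share little. The role of counting noise was not tested. Pearson's r of the within-embryo differences over all 20175 probes was 0.065 to 0.082 between pairs of embryos. Over the 8354 probes at 1.5 times background or more it was 0.120 to 0.188. These are correlations across probes of the same libraries, which are not independent replicates, and each difference shares its library's depth and scaling.

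Wild-type E13.5 embryos, prepared as separate animals, served to ask whether the region difference depended on Wnt7a at this stage. In them 199 of 20175 probes differed between the regions (0.986%), 141 higher (0.699%) and 58 lower (0.287%) in the MDE. Without wild-type embryo 1, 2 or 3 the count was 113, 101 and 108. As in the null, the split turned under upper-quartile scaling, to 77 higher and 137 lower, and after background subtraction, to 110 higher and 269 lower. The genotypes shared 110 probes in the same direction, 80 higher and 30 lower, which is 46.4% of the null list and 55.3% of the wild-type list. After thinning, 40 to 48 probes were shared. Without null embryo 1, 2 or 3 the shared count was 64, 93 and 61, and without wild-type embryo 1, 2 or 3 it was 67, 63 and 72. No probe was called in opposite directions (0). The remaining 127 probes of the null list and 89 of the wild-type list passed in 1 genotype only, which by itself is no test of a genotype difference.

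The difference between genotypes was tested directly, and 0 of 20175 probes (0%) passed by edgeR's quasi-likelihood test; 855 had an unadjusted p under 0.05. DESeq2 and limma-voom also called 0, with 483 and 1452 probes under 0.05 unadjusted. The interaction was measured less precisely than the region difference itself: its median SE was 0.345 in the brightest class and 0.568 in the dimmest. The absence of calls does not show that the genotypes were alike.

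The 237 probes had mostly the same sign in wild-type embryos. Their sign was the same in 227 of 237 cases, against 56.6% of all probes, and 178 had the same direction with an unadjusted p under 0.05, as did 1293 of all 20175 probes. The median wild-type log2 fold change was 0.65 for the 168 higher and -0.64 for the 69 lower probes, nearer to 0 than the null medians of 0.86 and -1.06. The reverse holds for the wild-type list, whose medians were 0.97 and -1.22 in wild-type and 0.63 and -0.61 in null embryos. Each list is thus larger in the genotype in which it was chosen. Over all probes, Pearson's r between the genotypes' fitted differences was 0.233, and over the 8354 brighter probes 0.414.

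**Figure D4:**
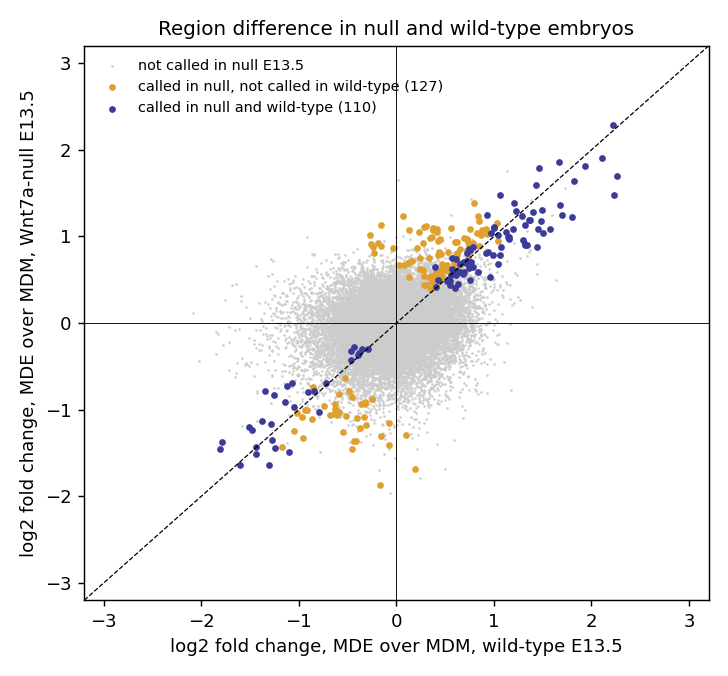
Log2 fold change of MDE over MDM in Wnt7a-null E13.5 embryos against that in wild-type E13.5 embryos, 1 point per probe, with the line of equality dashed. The 110 probes called in both genotypes lie along the line, and the 127 called in null but not in wild-type embryos lie mostly nearer to 0 on the wild-type axis.

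The 4 named probes differed between the regions in wild-type E13.5 embryos too. RTS0073516 had a log2 fold change of 2.22 there, and the null minus wild-type difference was 0.07 with a 95% interval of -0.45 to 0.60. RTS0064427 stood at -1.60, with a difference of -0.03 and an interval of -0.56 to 0.50. RTS0068462 stood at -1.31, with a difference of -0.33 and an interval of -1.01 to 0.35. RTS0068983 was the exception: its wild-type value was 2.26, and its difference of -0.57 had an interval of -0.96 to -0.18, but the adjusted p of edgeR's test was 0.998 (unadjusted p = 0.00403).

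A single probe passed the genotype test under 2 of the alternatives, a different one in each. RTS0067163 passed only in the limma fit on background-subtracted levels (log2 difference 2.56, SE 0.513, adjusted p = 0.0319). With edgeR, its region difference was -0.41 in null and -1.58 in wild-type embryos, and their difference of 1.18 (SE 0.440) had an adjusted p of 0.998. RTS0080811 passed only without Wnt7a-null embryo 1 (log2 difference -1.38, SE 0.230, edgeR adjusted p = 0.000140). Its within-embryo differences were 0.95, -0.90 and 0.06 in the null embryos, so they disagreed in sign, and 1.32, 1.13 and 0.57 in the wild-type embryos.

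Stage was compared within the null genotype, between E13.5 and the later embryos at E14.5. In Wnt7a-null E14.5 embryos 475 of 20175 probes differed between the regions (2.35%), 363 higher (1.8%) and 112 lower (0.555%) in the MDE. Of these, 121 were shared with the E13.5 list, 92 higher and 29 lower, which is 51.1% of the E13.5 list and 25.5% of the E14.5 list. The E14.5 list rests on 1 embryo that stands apart: its MDE library held 2618342 counts, and without that embryo (replicate 2) 88 probes passed. The lengths of the E13.5 and E14.5 lists are therefore not compared.

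The median differences of the 237 probes were smaller at E14.5 in the null. Their median log2 fold changes were 0.43 for the higher and -0.33 for the lower probes, and 221 of the 237 had the same sign, against 56.4% of all probes. Taken in the direction it had at E13.5, the E14.5 value was below the E13.5 size for 204 of the 237 probes. The same held for 16924 of all 20175 probes. A probe of opposite sign at E14.5 counts as below, whatever its size. The 237 were chosen for their difference at E13.5, so these counts describe them and do not test a change. The E14.5 null totals ranged from 305606 to 2618342 counts in the MDE and from 3707769 to 12379529 in the MDM. On average, the brightest 5% of probes took 17.5% of the MDE counts and 16.1% of the MDM counts in these E14.5 libraries. In the Wnt7a-null E13.5 libraries the means were 22.8% and 21.3%, so the mean signal was flatter at E14.5. The roles of depth and of the flatter signal in the smaller medians were not tested. In all 4 combinations of genotype and stage, 69 of the 237 probes were called in the same direction, 55 higher and 14 lower in the MDE. Of all 20175 probes, called in Wnt7a-null E13.5 embryos or not, 92 were called in the other combinations with the sign they had there.

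The test of stage itself called 16 of 20175 probes (0.0793%), with 9 positive (0.0446%) and 7 negative (0.0347%) E14.5 minus E13.5 differences; 1118 probes had an unadjusted p under 0.05. Upper-quartile scaling gave 15 probes, 12 positive and 3 negative. DESeq2 called 4 positive and 0 negative, and background subtraction 7 positive and 0 negative. The fit without the embryo block called 0 positive and 2 negative. Of the 16, 10 were called at E13.5 and were smaller at E14.5: 6 higher in the MDE and 4 higher in the MDM. Another 5 were called higher in the MDE at E14.5 but were not called at E13.5, and 1 was called lower in the MDE at E14.5 but was not called at E13.5. The within-embryo differences of the stages did not overlap for 15 of the 16 and for 11.9% of all probes. The call is sensitive to the fit: without Wnt7a-null E14.5 embryo 2 or 3, 9 probes passed, and after thinning 3 to 9.

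RTS0073516, the probe with the largest region difference at E13.5, had the lowest p among the 16. Its within-embryo log2 differences were 2.27, 2.89 and 1.91 at E13.5 and 1.49, 0.54 and 0.69 at E14.5. In the MDE it went from 149, 241 and 143 CPM to 105, 58.3 and 63.6 CPM, while the MDM stayed between 31.6 and 40.2 CPM at both stages. The fitted difference went from 2.29 to 0.70, a change of -1.59 (SE 0.216, edgeR adjusted p = 2.38e-08). The call was lost in 3 of 23 alternatives: DESeq2, 1 thinning draw and background subtraction. In wild-type embryos the values were 2.22 and 2.29, and whether the change with stage differs between genotypes was not tested.

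RTS0077397 showed the same course with a smaller change. It stood at 164, 182 and 106 CPM in the E13.5 MDE and at 50.8, 40.7 and 47.4 CPM in the E13.5 MDM. At E14.5 the MDE levels were 72.9, 52.0 and 49.96 CPM and the MDM levels 44.2, 38.5 and 39.6 CPM. The fitted region difference went from 1.59 to 0.45, a change of -1.14 (SE 0.222, edgeR adjusted p = 0.000959), and from 1.43 to 1.30 in wild-type embryos. This call was lost in 10 of 23 alternatives.

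RTS0068891 was not called between the regions at E13.5 and was higher in the MDE at E14.5. Its E13.5 levels were 97.1, 258 and 85.7 CPM in the MDE and 105, 171 and 102 CPM in the MDM. At E14.5 the MDE levels were 193, 138 and 218 CPM and the MDM levels 95.1, 47.3 and 71.7 CPM. The regions overlapped at E13.5 and did not at E14.5, and the fitted difference went from 0.14 to 1.45, a change of 1.31 (SE 0.209, edgeR adjusted p = 1.50e-05). The call was lost in 5 of 23 alternatives: DESeq2, limma-voom, the fit without the embryo block and 2 thinning draws. The wild-type values were 0.89 and 1.67.

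RTS0073768 had fitted differences of opposite sign at the stages. It was 149, 235 and 127 CPM in the E13.5 MDE against 223, 264 and 182 CPM in the MDM, and lower in the MDE of each embryo, though this difference of -0.41 did not pass (edgeR adjusted p = 0.314). At E14.5 it was 114, 117 and 106 CPM in the MDE against 56.5, 73.3 and 57.2 CPM in the MDM, with a fitted difference of 0.79. The change of 1.20 (SE 0.202, edgeR adjusted p = 4.38e-05) came with lower mean levels in both regions at E14.5. It was lost in 4 of 23 alternatives: the fit without the embryo block and 3 thinning draws. In wild-type embryos the values were -0.45 and 1.52, so the signs were opposite in that genotype as well.

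**Figure D5:**
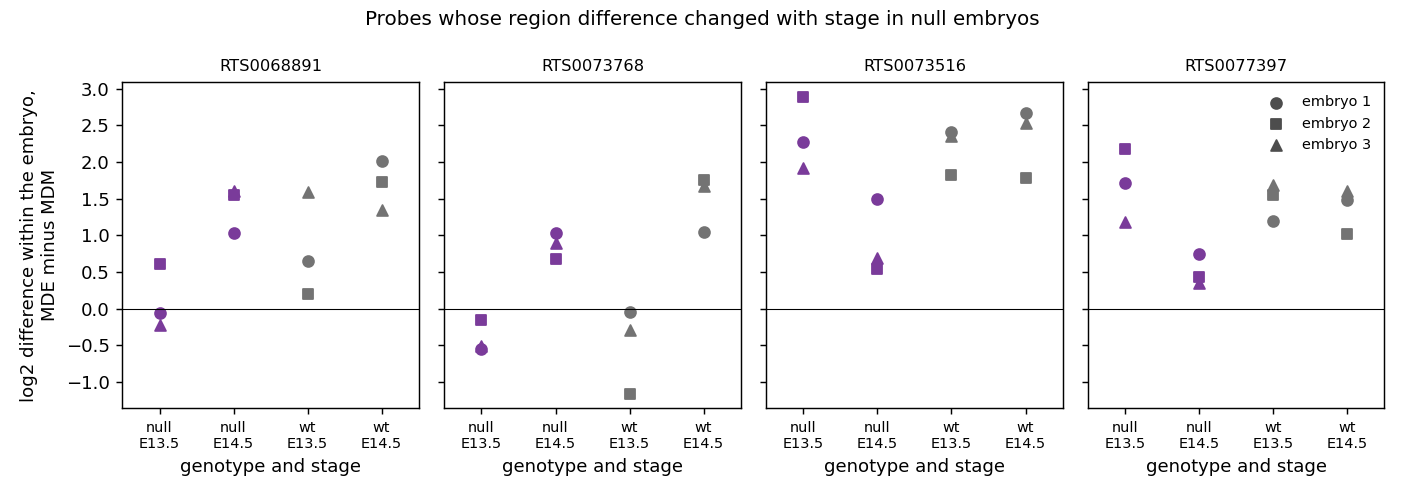
Log2 difference MDE minus MDM within each embryo for the 4 named probes of the stage test, by genotype and stage, with 3 embryos per column (null embryos coloured, wild-type grey). The probes were named on the condition that the E13.5 and E14.5 values of the null embryos do not overlap; RTS0073516 and RTS0077397 are lower at E14.5 and the other probes higher.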

How the data were processed

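Per the file headers, the deposited values are raw probe counts written by version 2.3.5 of the GeoMx NGS Pipeline. The submitters' processing notes list GRCm38.p6 as a build, and how reads were collapsed to counts is not given in the sources used here. Unlisted probes were set to 0. All 24 libraries came from 1 sequencing set, and no pair held identical values. Replicates are separate embryos, per the series' design text. Groups and embryos came from the titles.

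The test was the quasi-likelihood test of edgeR 4.0.16, run in R 4.3.3 (TMM; filterByExpr, minimum count 10, minimum total 15; robust quasi-likelihood fit; threshold 0.05 on the Benjamini-Hochberg adjusted p). The filter kept all 20175 probes, so the alternative without a filter repeats the main fit. All 24 libraries entered 1 fit, which had an embryo block and 1 region term per genotype and stage. P-values therefore rest on a spread pooled over all embryos (8 residual degrees of freedom). The fit also draws the spread of each probe toward a trend over all probes. The very small p-values rest on that borrowing too, and not on the embryos alone. An exact sign test on 3 pairs cannot go below 0.25. The SE is the size of the log2 fold change over the square root of F. Within-embryo differences are log2 CPM with 0.5 counts added. MDE and MDM of a number come from the same animal. Their deviations from the group means correlated at 0.101, 0.170 and 0.338 in the null E13.5 embryos (8354 probes), and at -0.240 to 0.039 between different embryos. Deviations from a mean cancel out over the embryos of a region. Positive values within embryos therefore force lower values between them, and the contrast is no independent check of the pairing.

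Named probes are, per comparison, the 2 with the lowest p in each direction that had 1 sign in all 3 embryos or, for a difference of differences, groups that do not overlap. Alternatives were other scalings, DESeq2 1.42.0, limma 3.58.1, other filters, no embryo block, fewer libraries, thinning in 5 draws and background subtraction. The code was tested on simulated data. The members, lists and tests were chosen with earlier results of these data known. Gene names, marker lists and the limit of quantitation were not used here.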

Additional observations from a re-analysis of the deposited data

Results flagged for a closer look

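The difference between MDE and MDM changed from E13.5 to E14.5 in Wnt7a-null embryos for 16 probes by edgeR's quasi-likelihood test of the difference itself. The named ones were RTS0068891 (log2 change 1.31) and RTS0073768 (1.20), which shifted toward the MDE, and RTS0073516 (-1.59) and RTS0077397 (-1.14), which shifted toward the MDM. These calls were lost in 5, 4, 3 and 10 of 23 alternatives, in that order. The E14.5 MDE totals ranged from 305606 to 2618342 counts, against 139017 to 365215 at E13.5. The brightest 5% of probes took a smaller mean share of the counts at E14.5 in both regions. The roles of depth and of this flatter signal in these changes were not tested.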

How the results depend on the processing

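The 237 probes that differed between the regions in Wnt7a-null E13.5 embryos became 75 with no replicate block, of which 72 were among the 237, 120 in a fit of these 6 libraries alone, and 99, 94, 78, 99 and 113 in 5 thinning draws. Each embryo was left out in turn except those of wild-type E14.5, here and below, which gave 110 to 244. DESeq2 called 171 and limma-voom 173. Background subtraction called 292 of the 8292 probes it tested, of which 81 were higher and 211 lower. In all 26 fits, 25 probes passed (17 higher, 8 lower), and no shared call changed direction. The genotype test gave 0 without the replicate block, 1 after background subtraction and 0 to 1 without an embryo. The 16 stage calls became 2 without the replicate block (0 positive, 2 negative), 4 with DESeq2 (4 and 0) and 5 with limma-voom (4 and 1). Background subtraction gave 7, with 7 positive and 0 negative. The thinning draws gave 3, 9, 3, 4 and 9, and the fits without an embryo 9 to 18. The 199 wild-type calls became 68 without the replicate block, 100, 116, 97, 99 and 97 after thinning, 379 after background subtraction (110 higher, 269 lower), and 101 to 208 without an embryo. The 475 calls in Wnt7a-null E14.5 became 100 without the replicate block, 314 with DESeq2, 72 with limma-voom, 277, 320, 310, 326 and 312 in the thinning draws, 134 after background subtraction, and 88 to 501 without an embryo. The 110 shared probes were 40 to 48 after thinning, 53 with limma-voom and 43 without the replicate block. Thinning draws 2 to 5 and the alternatives for the wild-type and E14.5 calls were added after seeing the data. The cause of each change was not tested, other than fewer counts or fewer libraries where the alternative removes them. Depth limits the MDE, where a median probe had 5 to 15 counts.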
